A study of Mus musculus with 18 samples.

Results

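The 10 genes described here encode the transcription factors and adaptor proteins at the centre of the erythroid gene program: Gata1, Gata2, Tal1, Lmo2, Ldb1, Klf1, Klf3, Zfpm1, Gfi1b and Nfe2. They were taken by symbol from a table of 26599 genes, and all 10 had a single entry there. The cells were MEL, a mouse erythroleukemia line in which dimethyl sulfoxide (DMSO) induces erythroid maturation and hemoglobin production. Cells after 5 days in 2% DMSO (day 5) were set against cells before treatment (day 0), with 2 RNA-seq libraries per day that the labels call biological replicates. Per the labels, at least 80 to 90% of the treated cells made hemoglobin by colour and benzidine staining, so some cells of a day 5 library may not have responded. Both days come from the same transformed line, which is not a normal red cell precursor.

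GATA1 binds DNA at GATA motifs and works with TAL1, a basic helix-loop-helix protein, through a bridge made by the adaptor LMO2 and the LIM-binding protein LDB1. This complex activates red cell genes and, through cofactors such as FOG1 (encoded by Zfpm1) and the repressor GFI1B, shuts off genes of earlier and other blood cells. KLF1 binds CACCC boxes and activates globin and membrane genes, KLF3 binds similar boxes and mostly represses, and NF-E2 (p45, encoded by Nfe2) acts at the beta globin locus together with a small Maf protein.

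Tal1, Klf3 and Gfi1b rose on day 5, Lmo2 fell, and the other 6 genes did not pass the threshold, which was a Benjamini-Hochberg adjusted p of 0.05 in limma over all 10736 genes tested. Of these 10 genes 3 were called higher and 1 lower on day 5, against 10.7% and 7.81% of all genes tested. That split over all genes, 1150 higher and 839 lower, was 814 and 895 after quantile normalization and 714 and 1389 after a shift of the libraries to a common median. Both day 5 libraries lay above both day 0 libraries for 9 of the 10 genes and below for Lmo2, whereas this held for 40.2% and 27.0% of all genes tested, or 67.2% in either direction. The median log2 fold change was 0.67 over the 10 genes and 0.15 over all genes tested, where fold changes are on the scale of log2(FPKM + 1) and FPKM are fragments per kilobase of transcript, scaled to the number of mapped fragments. With 2 libraries per day the p-values measure only the spread between these libraries. In bulk RNA, a change in the share of cells that express a gene and a change in RNA per cell cannot be told apart.

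**Figure D1:**
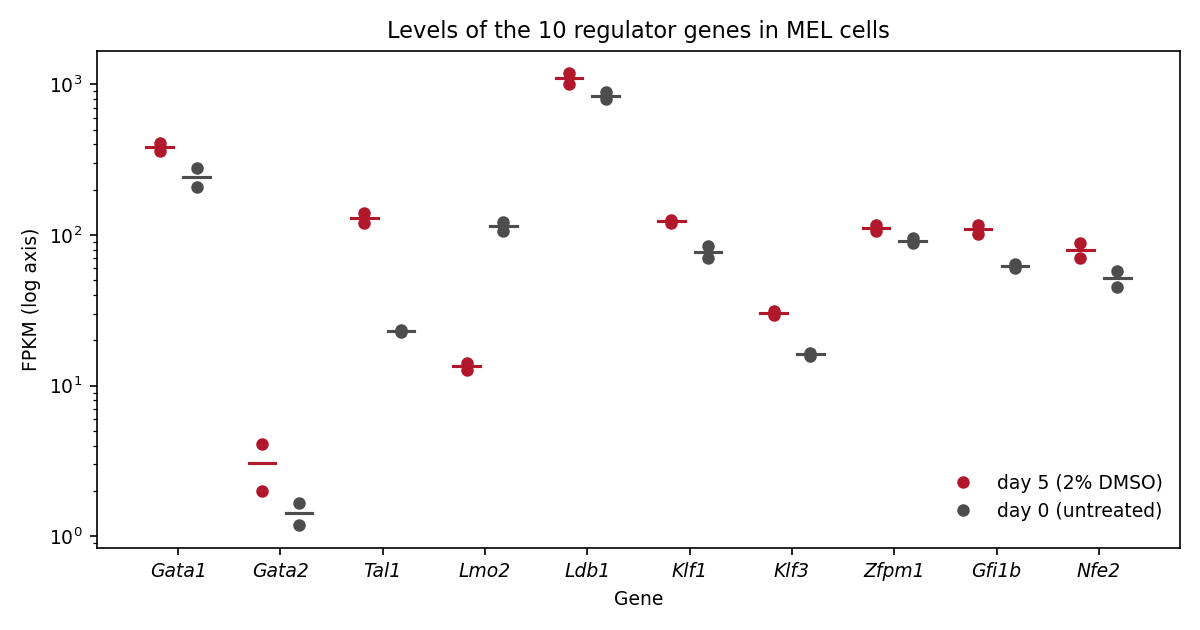
FPKM (log axis) of the 10 genes in each library, with day 5 in red to the left of day 0 in grey; points are single libraries and bars are means of 2 libraries. Tal1 stands at 140.2 and 120.2 FPKM on day 5 against 22.9 and 23.4 on day 0, and Lmo2 at 14.1 and 12.8 against 121.6 and 107.1.

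Promoter letters are shown for the 3 genes that rose and for Klf1, a textbook GATA1 target that was not called. The letters marked differ by gene, and the 2 CCNCNCCC matches of Gfi1b are left unmarked. RefSeq (GRCm38.p6) gave windows for 8 of the 10 members, 12 windows in all, each from 250 bases before to 50 bases after a gene start, and the 250 bases before the start are printed 5′ to 3′ on the strand of the gene. Capitals in Tal1 (chr4:115056176-115056425, plus strand, the first of 2 windows), Gfi1b (chr2:28621983-28622232, minus strand) and Klf1 (chr8:84901732-84901981, plus strand) mark AGATAA or TGATAA read on either strand, the letters of a GATA motif. Capitals in Klf3 (chr5:64803271-64803520, plus strand) mark CCNCNCCC on either strand, with overlapping matches run together. CCNCNCCC is a loose form of the CACCC box, so runs without CACCC match it as well. Of the stretches marked in Klf3, only GGGTGGGG holds CACCC, read on the other strand.
Tal1: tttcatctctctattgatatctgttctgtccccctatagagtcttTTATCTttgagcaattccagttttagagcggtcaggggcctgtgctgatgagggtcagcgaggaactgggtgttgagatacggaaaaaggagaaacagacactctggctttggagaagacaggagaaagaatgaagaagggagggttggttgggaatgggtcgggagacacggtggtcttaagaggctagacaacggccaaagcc
Gfi1b: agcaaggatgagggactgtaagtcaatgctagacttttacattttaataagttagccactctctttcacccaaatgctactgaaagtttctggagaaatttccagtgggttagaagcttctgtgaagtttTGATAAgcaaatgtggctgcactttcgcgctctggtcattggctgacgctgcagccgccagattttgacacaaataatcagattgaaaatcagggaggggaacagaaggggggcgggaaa
Klf1: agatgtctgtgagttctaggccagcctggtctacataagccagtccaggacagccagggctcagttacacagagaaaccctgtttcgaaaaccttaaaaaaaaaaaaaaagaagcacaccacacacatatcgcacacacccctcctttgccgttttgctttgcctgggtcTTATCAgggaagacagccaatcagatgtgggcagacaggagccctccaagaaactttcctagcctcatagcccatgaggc
Klf3: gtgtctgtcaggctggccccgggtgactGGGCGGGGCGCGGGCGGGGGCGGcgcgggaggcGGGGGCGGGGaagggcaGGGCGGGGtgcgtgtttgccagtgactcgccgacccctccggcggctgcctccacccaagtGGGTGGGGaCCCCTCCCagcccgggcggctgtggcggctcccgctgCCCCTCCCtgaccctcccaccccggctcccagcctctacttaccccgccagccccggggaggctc
The GATA letters start 205 bases before the gene start in Tal1, 120 in Gfi1b and 80 in Klf1. The Klf3 window and the second Tal1 window hold no GATA letters. GATA letters were found in 4 of the 12 member windows (those of Ldb1 were the fourth, with 2 matches) and in 18.6% of all 32851 windows. CCNCNCCC was found in 10 of the 12 and in 49.5% of all windows, with 10 matches in Klf3 alone, some of them overlapping. CAGATG or CAGCTG, E-box letters that TAL1 with an E protein can bind, stood in 3 of 12 windows, in Gata2, in Tal1 and in Klf1, against 30.6% of all. TGAGTCA, the letters of an NF-E2 site, stood in 0 of 12 against 5.20% of all, and GAGGAAG, letters of a PU.1 site, in 1 of 12, in Ldb1, against 13.6%. All motifs were searched on both strands, windows of 1 gene are not independent, and a match is a run of letters that may not be bound.

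Of the 3 core genes of the complex, Tal1 and Lmo2 had the largest fold changes in size among the 10, and Ldb1 had the second smallest. Tal1 was measured at 140.2 and 120.2 FPKM in the day 5 libraries, against 22.9 and 23.4 FPKM in the day 0 libraries. Both day 5 values stood far above both day 0 values, and the means, 130.2 ± 14.1 and 23.1 ± 0.367 FPKM (SD, n = 2 each), differed 5.63-fold (log2 fold change 2.44 ± 0.18 SE, limma adjusted p = 0.00517). Among all genes tested Tal1 moved up the order of levels, to the 91.8th percentile on average on day 5 against the 61.4th on day 0.

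Lmo2 was measured at 14.1 and 12.8 FPKM on day 5, against 121.6 and 107.1 FPKM on day 0. The replicates of each day were close to each other, and the days did not overlap. Its mean fell to 13.4 ± 0.932 FPKM on day 5, against 114 ± 10.3 on day 0 (SD, n = 2 each), which is 0.118 of the day 0 level (log2 fold change -3.00 ± 0.18 SE, limma adjusted p = 0.00441). On average it stood at the 42.2nd percentile of tested genes on day 5 and at the 89.7th on day 0.

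Ldb1, whose protein self-associates and can bring distant complexes together, was the most abundant of the 10 genes on both days. It had 1008 and 1185 FPKM on day 5, against 884 and 797 FPKM on day 0, a difference that did not pass (log2 fold change 0.38 ± 0.18 SE, limma adjusted p = 0.191). Its libraries did not overlap between days, but the day 5 pair differed between themselves by more than the gap between the days. Of the summed FPKM of the 10 genes, Ldb1 made up 50.8% and 54.4% on day 5 and 55.2% in both day 0 libraries.

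Per length, the balance within this core turned over. The ratio of Tal1 to Lmo2 was 9.94 and 9.40 in the day 5 libraries, against 0.188 and 0.219 in the day 0 libraries, a difference of 5.43 on the log2 scale. The ratio of Lmo2 to Ldb1 was 0.0140 and 0.0108 on day 5, against 0.138 and 0.134 on day 0 (log2 difference -3.38), while that of Tal1 to Ldb1 was 0.139 and 0.101 on day 5, against 0.0259 and 0.0293 on day 0 (log2 difference 2.06). In these 3 ratios the days did not overlap. An exact two-sided permutation test gave p = 0.333 for each, the smallest that 2 libraries against 2 allow. Of 6 ratios compared in all, none could therefore pass at 0.05, with or without adjustment.

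**Figure D2:**
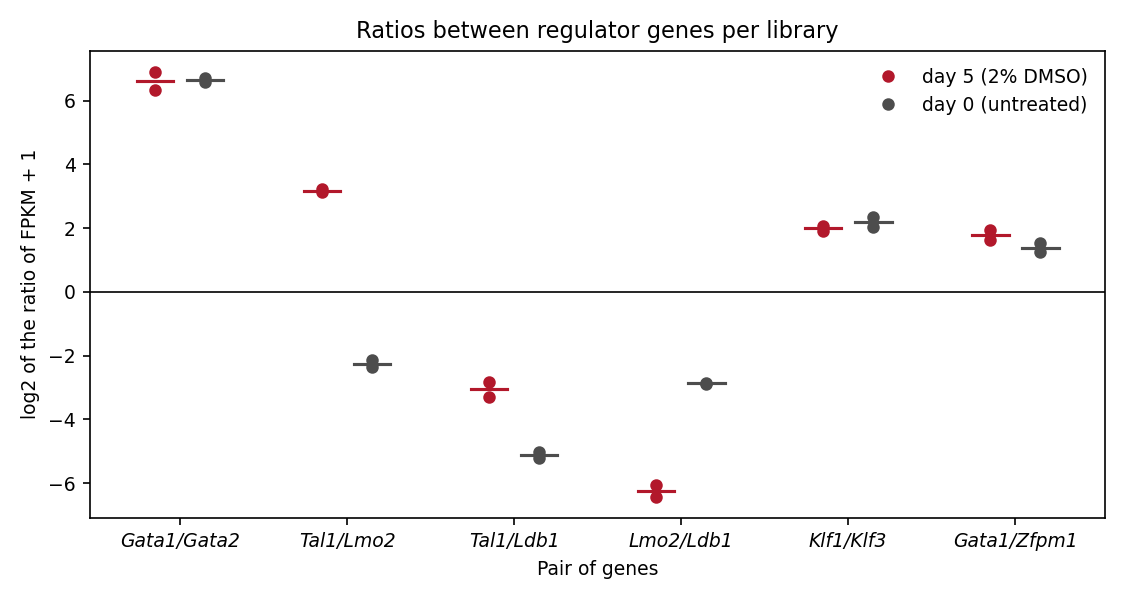
Log2 ratio of FPKM + 1 for 6 pairs of genes in each library, with day 5 in red to the left of day 0 in grey; points are libraries and bars are means of 2. Tal1/Lmo2 lies above 0 on day 5 (means 3.18 on day 5 and -2.25 on day 0), Lmo2/Ldb1 lies lower on day 5 (-6.24 and -2.87), and the Gata1/Gata2 libraries of the days overlap (6.62 and 6.66).

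The 2 GATA factors kept a wide distance from each other. GATA2 acts in stem and progenitor cells and gives way to GATA1 as red cells mature, which is called the GATA switch. Gata1 had 359 and 407 FPKM on day 5, against 279 and 209 FPKM on day 0, and ranked behind Ldb1 alone among the 10 genes on both days. The days did not overlap, but the log2 fold change of 0.66 ± 0.20 SE did not pass (limma adjusted p = 0.0760). It passed after quantile normalization (log2 fold change 0.92, limma adjusted p = 0.0412), 1 of the 9 alternatives that kept all libraries, and was 0.42 (0.170) after a shift of the libraries to a common median.

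Gata2 was the lowest of the 10 genes, at 2.01 and 4.08 FPKM on day 5, against 1.65 and 1.18 FPKM on day 0. The higher day 5 library stands apart from the other 3, and the log2 fold change of 0.70 ± 0.39 SE (limma adjusted p = 0.247) was 1.08 without day 5 replicate 1 and 0.32 without day 5 replicate 2. Gata1 exceeded Gata2 178-fold and 99.9-fold in the day 5 libraries, against 169-fold and 177-fold in the day 0 libraries, so the ratio already stood high before treatment. The days overlapped in this ratio. On FPKM + 1, where the added 1 weighs heavily against levels as low as those of Gata2, the log2 difference was -0.040 (exact two-sided permutation p = 1). With a smaller added value that difference was larger in size, as given below.

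Zfpm1, which encodes the GATA1 cofactor FOG1, differed little between the days. It had 116 and 106 FPKM on day 5, against 95.9 and 88.1 FPKM on day 0 (log2 fold change 0.27 ± 0.16 SE, limma adjusted p = 0.272). Relative to the median of all genes tested its log2 change was 0.12, the smallest in size of the 10. The ratio of Gata1 to Zfpm1 was 3.09 and 3.84 on day 5, against 2.91 and 2.38 on day 0 (log2 difference 0.39, exact two-sided permutation p = 0.333), and the difference was 0.23 without day 5 replicate 2 and 0.24 without day 0 replicate 2.

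The pair of KLF genes lay higher on day 5 by similar amounts, at different levels. Klf3 had 29.7 and 31.2 FPKM on day 5, against 16.5 and 15.8 FPKM on day 0. It rose 1.88-fold in its mean, 30.4 ± 1.05 against 16.1 ± 0.491 FPKM (SD, n = 2 each, log2 fold change 0.87 ± 0.19 SE, limma adjusted p = 0.0389). KLF1 is known to activate Klf3 in erythroid cells. Klf1 itself had 126.7 and 120.7 FPKM on day 5, against 70.2 and 84.6 FPKM on day 0, with no overlap. Its log2 fold change of 0.68 ± 0.18 SE lay just outside the threshold (limma adjusted p = 0.0538). It passed after quantile normalization (limma adjusted p = 0.0416) and with a filter of 5 FPKM (0.0475), and in none of the other 7 alternatives with all libraries. After a shift to a common median its log2 fold change was 0.43 (limma adjusted p = 0.170). The ratio of Klf1 to Klf3 was 4.27 and 3.87 on day 5, against 4.26 and 5.36 on day 0, so the days overlapped (log2 difference -0.20, exact two-sided permutation p = 0.667). Leaving out day 0 replicate 2 brought that difference to -0.036, leaving out day 5 replicate 2 to -0.13, and leaving out day 0 replicate 1 to -0.36.

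Gfi1b, which represses its targets through the LSD1-CoREST complex, had 117 and 102 FPKM on day 5, against 64.5 and 60.0 FPKM on day 0. Both day 5 libraries were well above both day 0 libraries, and the mean rose 1.76-fold, to 109 ± 10.8 FPKM on day 5 against 62.3 ± 3.11 on day 0 (SD, n = 2 each, log2 fold change 0.80 ± 0.17 SE, limma adjusted p = 0.0363). Nfe2 had 70.4 and 88.5 FPKM on day 5, against 45.5 and 57.6 FPKM on day 0. The days did not overlap, although replicates differed by about as much as the days did at their closest, and the log2 fold change of 0.61 ± 0.21 SE did not pass (limma adjusted p = 0.0985).

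The calls were not equally firm. Tal1 and Lmo2 passed in all 9 alternatives that kept the 4 libraries, Gfi1b in 6 and Klf3 in 4. When the libraries were shifted to a common median, which moved the median change of all genes by -0.24, neither Gfi1b (log2 fold change 0.56, limma adjusted p = 0.0778) nor Klf3 (0.63, 0.0740) passed. The same shift gave Ldb1 0.14, Nfe2 0.37 and Zfpm1 0.028. With 1 library left out, 1 day rests on a lone library, so effect sizes alone are given here. The log2 fold changes then ranged from 2.33 to 2.55 for Tal1 and from -3.09 to -2.90 for Lmo2. They ranged from 0.70 to 0.90 for Gfi1b and from 0.84 to 0.91 for Klf3. All 10 kept their direction in every alternative in which they were tested.

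**Figure D3:**
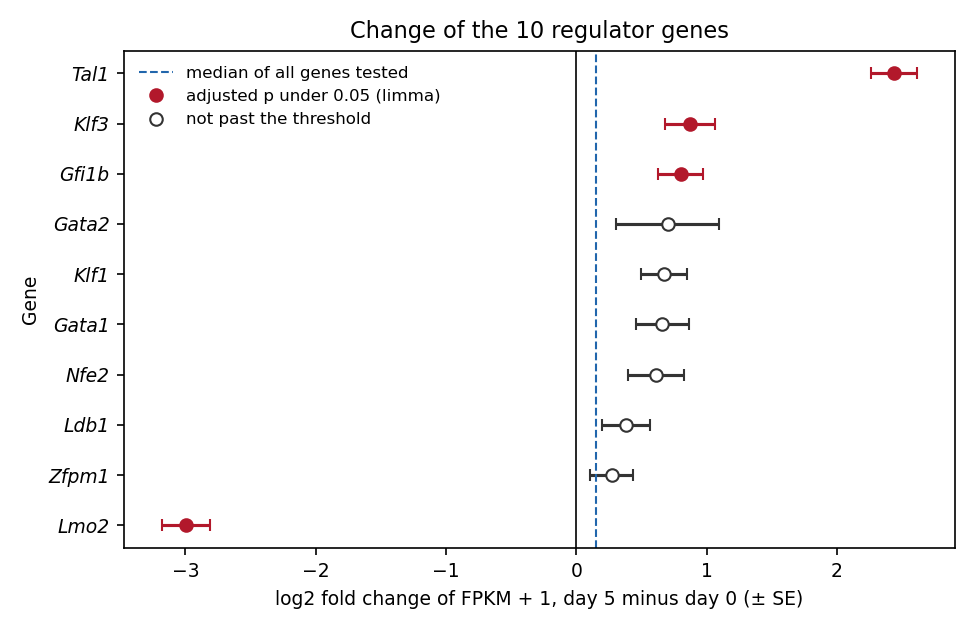
Log2 fold change of FPKM + 1 (day 5 minus day 0, with standard errors from limma) of the 10 genes; red points passed an adjusted p of 0.05, the solid line marks 0 and the dashed line the median of all genes tested, 0.15. Tal1 (2.44) and Lmo2 (-3.00) lie far from the other 8 genes, which lie between 0.27 and 0.87.

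The order of levels on day 5 ran Ldb1, Gata1, Tal1, Klf1, Zfpm1, Gfi1b, Nfe2, Klf3, Lmo2 and Gata2, against Ldb1, Gata1, Lmo2, Zfpm1, Klf1, Gfi1b, Nfe2, Tal1, Klf3 and Gata2 on day 0. Tal1 was at place 3 on day 5 and at place 8 on day 0, and Lmo2 at place 9 on day 5 and at place 3 on day 0. Klf1 stood just above Zfpm1 on day 5 and just below it on day 0, with libraries that came close to each other on both days. On day 5 the libraries of Tal1 and Klf1 overlapped, as did those of Zfpm1 and Gfi1b, so the order within these 2 pairs is not settled. On day 0 the libraries of no neighbours in the order overlapped, but Gfi1b at its lowest (60.0 FPKM) and Nfe2 at its highest (57.6 FPKM) were close. The 10 genes together held 1984 and 2177 FPKM on day 5, against 1602 and 1444 FPKM on day 0.

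The genes with the 4-library pattern closest to each called gene were looked up by Euclidean distance of log2(FPKM + 1) around the mean of each gene. For Tal1 they were Ranbp10, Parp12 and Mknk2 (distances 0.123, 0.154 and 0.164), with log2 fold changes of 2.42, 2.32 and 2.30. For Lmo2 they were Aqp9, a water and glycerol channel gene, Cmtm7 and Top1mt, the mitochondrial topoisomerase gene (0.113, 0.234 and 0.238), with -2.95, -3.00 and -2.93. For Klf3 they were Tmem2, Gse1 and Cdk5 (0.012, 0.043 and 0.045), and for Gfi1b they were Eif2ak3, Dpp8 and Wdr11 (0.031, 0.052 and 0.052). A pattern over 4 libraries holds little more than 1 difference, so closeness here says mainly that the size of the change was alike.

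Partners of the complex were measured from a list of 14 genes, of which 13 were tested. In limma 0 rose and 0 fell (2 at an unadjusted p under 0.05), against 10.7% and 7.81% of all genes tested. The median log2 fold change of the list was 0.34. Tcf3, which encodes the E proteins E12 and E47 that pair with TAL1, had 40.7 and 39.4 FPKM on day 5, against 49.5 and 44.6 FPKM on day 0 (log2 fold change -0.23, limma adjusted p = 0.382). Ssbp3, whose protein family binds LDB1 and shields it from breakdown, had 82.7 and 78.8 FPKM on day 5, against 58.9 and 68.3 FPKM on day 0 (0.34, 0.202). Lmo4, a relative of Lmo2 that also binds LDB1, had 45.1 and 42.4 FPKM on day 5, against 43.0 and 55.6 FPKM on day 0, and the days overlapped (-0.16, 0.598). After quantile normalization or a shift to a common median 1 partner passed, the cofactor gene Irf2bp2, which lay lower on day 5. Irf2bp2 had 22.0 and 22.8 FPKM on day 5, against 37.6 and 34.0 FPKM on day 0. In the main fit it did not pass (-0.65, limma adjusted p = 0.0660). Tcf3 and Irf2bp2 were picked after their values were seen.

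Coregulators used by GATA1, FOG1, GFI1B or KLF1 gave calls in both directions, at shares near those over all genes. Of 25 tested, 3 rose and 3 fell, against 10.7% and 7.81% of all genes, with a median log2 fold change of 0.043. Phf21a and Hmg20b, which rose, encode proteins found with the LSD1-CoREST complex. Phf21a, whose protein reads unmethylated histone H3, had 28.1 and 40.9 FPKM on day 5, against 10.7 and 10.2 FPKM on day 0 (log2 fold change 1.61 ± 0.26 SE, limma adjusted p = 0.0207). Hmg20b, which encodes an HMG-box protein, had 39.8 and 42.6 FPKM on day 5, against 23.2 and 14.4 FPKM on day 0 (1.13 ± 0.27 SE, 0.0465), a call kept in 3 of the 9 alternatives with all libraries. Kdm1a, which encodes LSD1 itself, had 67.3 and 47.0 FPKM on day 5, against 52.1 and 50.3 FPKM on day 0, and Rcor1, which encodes CoREST, 36.8 and 45.5 FPKM on day 5, against 29.4 and 23.4 FPKM on day 0. Neither passed (limma adjusted p = 0.696 and 0.102), and both were picked after their values were seen.

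The 3 that fell were Mbd3, Mta1 and Rbbp7, known as subunits of NuRD, the deacetylase and remodelling complex that FOG1 recruits. Other NuRD genes in the list did not pass, and they lay on both sides of no change. Positive log2 fold changes were those of Chd4 (0.37), Gatad2b (0.41), Hdac1 (0.26), Rbbp4 (0.03) and Mbd2 (0.02). Negative ones were those of Hdac2 (-1.06), Mta3 (-0.50), Gatad2a (-0.26) and Mta2 (-0.095). These genes were picked after their values were seen. Mbd3 had 37.4 and 46.7 FPKM on day 5, against 95.9 and 89.9 FPKM on day 0 (log2 fold change -1.13 ± 0.19 SE, limma adjusted p = 0.0230). Mta1 and Rbbp7 had log2 fold changes of -0.75 (limma adjusted p = 0.0348) and -0.65 (0.0499). The call of Rbbp7 was kept in 2 of the 9 alternatives with all libraries, and its value was -0.35 (0.192) after quantile normalization. After quantile normalization 2 of the 25 passed, Phf21a and Mbd3. With no filter on low values limma called 0 (9 had an unadjusted p under 0.05), and with eBayes run without a trend 3 passed, Phf21a and Mbd3 among them.

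Relatives of the 10 genes gave no call. Of 30 in the list 12 were tested, and limma called 0 of these (4 had an unadjusted p under 0.05), against 18.5% of all genes tested. The median log2 fold change of these 12 was 0.27. Among the other 18 were 15 listed at 0 in all 4 libraries, such as Gfi1, Klf2 and Ldb2, which in this table can also be a failed estimate. Gata3 was near 1 FPKM in every library, at 1.23 and 1.35 on day 5 and 0.882 and 0.946 on day 0. In the list of small Maf partners of NF-E2 and the proteins that share them, 5 of 7 were tested, with a median of 0.28. Of these 5 limma called 0 (1 had an unadjusted p under 0.05), against 18.5% of all genes tested. Nfe2l2, which encodes NRF2, had 49.5 and 44.8 FPKM on day 5, against 35.3 and 42.4 FPKM on day 0 (log2 fold change 0.28, limma adjusted p = 0.334), and Nfe2l1 varied more between replicates than between days (52.1 and 32.2 FPKM on day 5, against 18.2 and 39.4 on day 0). Mafk, which encodes a small Maf that pairs with p45, had 20.8 and 21.4 FPKM on day 5, against 21.5 and 20.5 FPKM on day 0, and was picked after its values were seen.

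**Figure D4:**
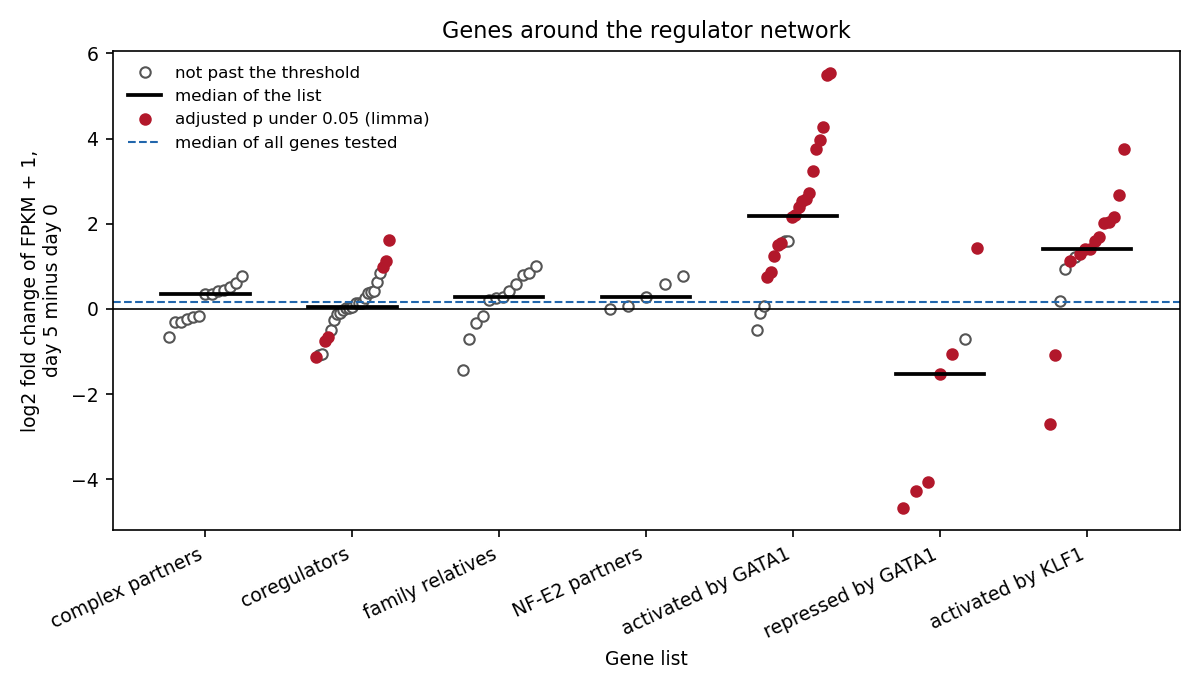
Log2 fold change of FPKM + 1, day 5 minus day 0, of each tested gene in 7 lists around the regulators; red points passed an adjusted p of 0.05 in limma, thick bars are list medians and the dashed line is the median of all genes tested. Of the genes activated by GATA1, 17 of 22 rose, whereas 0 of 13 complex partners passed. Over all genes tested 10.7% rose and 18.5% passed in either direction.

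Target genes were taken from lists of genes known to respond to these factors. Of 22 tested genes activated by GATA1, 17 rose and 0 fell, against 10.7% and 7.81% of all genes tested. The median log2 fold change of the list was 2.17. Hba-a1, an alpha globin gene, rose by 5.55 on the log2 scale (limma adjusted p = 0.00337), though its near-identical copy Hba-a2 makes its own share of the reads uncertain. Alas2, whose enzyme starts heme synthesis in red cell precursors, had 647 and 752 FPKM on day 5, against 19.7 and 10.7 FPKM on day 0 (log2 fold change 5.49 ± 0.30 SE, limma adjusted p = 0.00397). Epb4.2, which encodes the membrane skeleton protein 4.2, had 19.8 and 30.2 FPKM on day 5, against 0.385 and 0.236 FPKM on day 0 (4.28, 0.00558). With no filter on low values 4 of the 22 passed. Of the 22 log2 fold changes 20 were positive. Cpox lay lower, at 85.5 and 81.0 FPKM on day 5, against 114.8 and 121.5 FPKM on day 0 (-0.50, limma adjusted p = 0.0794). It passed as lower after a shift to a common median, and was picked after its values were seen.

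Of 7 tested genes that GATA1 is known to repress, 5 fell and 1 rose, against 7.81% and 10.7% of all genes tested. The median log2 fold change of the list was -1.53. Myb, a transcription factor gene of progenitors, had 1.06 and 2.51 FPKM on day 5, against 58.6 and 79.1 FPKM on day 0 (log2 fold change -4.68, limma adjusted p = 0.00552). Sfpi1, the gene of PU.1, which opposes GATA1, had 2.37 and 3.55 FPKM on day 5, against 55.4 and 101.0 FPKM on day 0 (-4.28, 0.00658). Vim, which encodes vimentin, had -4.06 (0.00416). Hes1, a target of Notch signalling, rose instead, at 6.01 and 6.05 FPKM on day 5, against 1.90 and 1.35 FPKM on day 0 (1.43, 0.0360), though it did not pass after quantile normalization (0.0524). With no filter on low values 1 of these genes passed, Vim.

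Of 16 tested genes activated by KLF1, 11 rose and 2 fell, against 10.7% and 7.81% of all genes tested. The median log2 fold change of the list was 1.41. Hbb-b1, a beta globin gene with a close copy that may share its reads, had 3.75, Spnb1, which encodes beta spectrin, 2.68, and the kinase gene Pim1 2.03 (limma adjusted p = 0.00596, 0.0134 and 0.0121). The 2 that fell were Bcl11a, a repressor of fetal and embryonic globin genes, at 8.42 and 11.2 FPKM on day 5, against 69.2 and 68.7 FPKM on day 0 (-2.71, 0.00599), and E2f4, a cell cycle factor gene (-1.08, 0.0262). With no filter on low values 3 of the 16 passed. Hbb-b1 and Slc4a1 stand in both lists of activated genes, so these counts are not independent.

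The labelled cell type was checked on marker genes. All 7 erythroid markers rose, against 10.7% of all genes tested. Megakaryocytes use GATA1, TAL1, GFI1B and NF-E2 as well, and 8 of their markers summed to 139 and 114 FPKM on day 5, against 57.8 and 18.3 FPKM on day 0. Of these 4 were tested, all with positive log2 fold changes, and Itga2b alone passed (104 and 92.8 FPKM on day 5, against 15.4 and 7.32 on day 0). Gp1ba was low and lay just outside the threshold, at 2.56 and 1.89 FPKM on day 5, against 0.146 and 0.295 on day 0 (limma adjusted p = 0.0510). The libraries of Pf4 overlapped between days, and Ppbp was listed at 0 in all libraries. Of 13 myeloid markers 6, among them Mpo and Csf1r, were listed at 0 throughout, and the list summed to 8.04 and 22.6 FPKM on day 5, against 27.8 and 21.3 FPKM on day 0. Mast cell markers summed to 0.382 and 0.376 FPKM on day 5, against 10.2 and 7.06 FPKM on day 0, and stromal markers to 0.725 and 1.55 FPKM on day 5, against 2.11 and 1.10 FPKM on day 0. Lymphoid markers summed to 21.0 FPKM, from Il7r, and 2.57e-27 FPKM on day 5, against 5.86 and 2.23 FPKM on day 0. In these lists 1 gene each fell in limma among the myeloid markers (Fcgr3, log2 fold change -2.59), the mast cell markers (Hdc, -2.69) and the lymphoid markers (Thy1, listed at 0 in both day 5 libraries), and the 1 stromal marker tested did not pass. The part of other cell types in the changes of the 10 genes was not tested.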

How the data were processed

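RNA-seq of 4 MEL libraries was used, 2 of day 5 and 2 of day 0, grouped and numbered by the sample titles. FPKM per gene and library are the authors' deposited values. The submitters' processing notes name Bowtie and mm9. Which program made the FPKM, and whether it used strand, is not given in the sources, although the libraries were stranded per the labels' protocols. Of the 10 genes 7 overlap another annotated gene (RefSeq, GRCm38.p6), mostly predicted long noncoding RNAs, whose reads may not have been parted from theirs. Read depth is unknown from FPKM, so no counting interval was made. Libraries had 10227 to 10601 genes at 1 FPKM or more, and replicates had a Pearson r across genes (log2 scale) of 0.939 for day 5 and 0.964 for day 0. Globin genes held 3.98% and 3.74% of FPKM on day 5, against 0.217% and 0.134% on day 0, and mitochondrially encoded genes 8.46% and 10.3%, against 4.88% and 6.45%.

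A gene was tested if 2 or more libraries reached 1 FPKM, which left 10736, all 10 members included. On log2(FPKM + 1), which understates the change of low genes, limma 3.58.1 (R 4.3.3) compared the days with a moderated test whose prior followed the mean level, two-sided and without covariates, and p-values were adjusted by Benjamini-Hochberg over all tested genes. The code was tested on simulated data. Members, lists and tests were chosen with earlier results of these data known. Named genes were all members, up to 3 called genes per direction in each other list (mean of 5 FPKM or more on a day), the 2 most abundant where a list had none, and the 3 nearest in pattern to each called member; 1 gene that this rule names is not reported here. The 13 alternatives were another pseudocount, 2 other filters, 4 other scalings, a replicate block, eBayes without trend and each library left out. The PU.1, DNase and ChIA-PET files hold mm9 positions without gene names and were not used here, for want of an mm9 gene annotation.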

Additional observations from a re-analysis of the deposited data

How the results depend on the processing

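With no filter on low values 237 genes passed in all (120 higher, 117 lower, against 1150 and 839), with 2 of the 10 regulators, 0 coregulators, 4 genes activated by GATA1, 1 repressed by GATA1 and 3 activated by KLF1. With eBayes without trend 2 regulators, 3 coregulators and 1 relative, Klf6, passed. Quantile normalization gave 2 coregulators and 1 complex partner, and splits of 814 higher and 895 lower over all genes. A shift to a common median gave 2 regulators and 1 complex partner, and 714 higher and 1389 lower. These scalings moved the median change of all genes by -0.14 and -0.24. With each library left out in turn, 0 to 13 genes passed in all in limma (2504 to 3440 at an unadjusted p under 0.05), and 0 in each of the 4 fits for the regulators, coregulators, genes activated or repressed by GATA1 and genes activated by KLF1. The cause was not tested, except that these fits hold fewer libraries.

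The Gata1 to Gata2 log2 difference, -0.040, was 0.25 without day 5 replicate 2 and 0.025 without day 0 replicate 1, ranging from -0.33 to 0.25 over the left-out libraries. The log2 fold change of Lmo4, -0.16, was 0.024 without day 0 replicate 2, ranging from -0.34 to 0.024. The other 5 ratios kept their direction with another pseudocount and with each library left out, but the log2 difference of Klf1 to Klf3 ranged from -0.36 to -0.036 and that of Gata1 to Zfpm1 from 0.23 to 0.55 over the left-out libraries. With another pseudocount that of Gata1 to Gata2 was -0.32. With the replicate number as a block (replicate block), 1797 genes passed in place of 1989, and 3 of the 10 regulators in place of 4, since Klf3 had a limma adjusted p of 0.0560. Hes1 (0.0506), Rbbp7 (0.0634) and Hmg20b (0.0505) did not pass under the block. Same-numbered libraries hardly deviated together (r = 0.0480 over 10736 genes, which are not independent). A single correlation cannot show whether they shared a batch or culture, which was not tested. Over the named genes, 241 of the values from alternatives that kept all libraries stayed on the same side of the threshold in the same direction, 41 no longer passed and 3 passed that had not. Unknown depth and 2 libraries per day limit all of these values.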

Other observations

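Relatives of 2 of the regulators crossed them in level per length, a pattern noticed in these values and given with no test. Lmo4 had 45.1 and 42.4 FPKM on day 5, above the 14.1 and 12.8 FPKM of Lmo2, whereas on day 0 Lmo4 had 43.0 and 55.6 FPKM, below the 121.6 and 107.1 FPKM of Lmo2. Lyl1, a helix-loop-helix gene related to Tal1 that takes part in similar complexes in progenitors, had 25.3 and 18.2 FPKM on day 5, below the 140.2 and 120.2 FPKM of Tal1. On day 0 Lyl1 had 33.3 and 38.7 FPKM, above the 22.9 and 23.4 FPKM of Tal1. Lyl1 itself did not pass (log2 fold change -0.72 ± 0.24 SE, limma adjusted p = 0.0885).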
